A study of Mus musculus with 9 samples.

Results

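The mevalonate pathway enzymes described here are 8 genes, Acat2, Hmgcs1, Mvk, Pmvk, Mvd, Idi1, Fdps and Fdft1, taken from the table by name. All 8 were found once each among the 54876 genes of the table. They were measured by RNA sequencing in MIN6 cells, a mouse insulinoma line from the C57BL/6 strain that is used as a stand-in for pancreatic beta cells. MIN6 is a transformed, dividing line, and every group consisted of these cells alone, so the values describe tumour-derived cells in culture and not islet tissue. The low group was kept for 24 h at 0.1 times the standard arginine concentration, the standard group at that concentration itself and the high group at 20 times it, with 3 libraries in each group and no other treatment named. Arginine is an amino acid that cells use for protein synthesis and as the source of nitric oxide, urea and polyamines. The comparisons ask how the RNA levels of the enzymes differed between arginine-poor, standard and arginine-rich medium.

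The mevalonate pathway turns acetyl-CoA into the isoprenoid units from which all cells build sterols, and from which they also make the lipid anchors of prenylated proteins, dolichol and the side chain of ubiquinone. Acat2 and Hmgcs1 assemble the carbon skeleton, Mvk and Pmvk phosphorylate mevalonate in turn, Mvd decarboxylates the product to isopentenyl diphosphate, and Idi1 isomerises it. Fdps joins these units to farnesyl diphosphate, the branch point of the pathway, and Fdft1 commits farnesyl diphosphate to squalene and so to sterols. No gene of the set makes mevalonate itself, so the set does not cover every step. The genes are textbook targets of SREBP-2, a membrane-bound transcription factor that is released by proteolysis when sterols in the endoplasmic reticulum are low. In beta cells, both the sterol and the prenyl branch are known to bear on insulin secretion.

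Values are FPKM, fragments per kilobase of gene length, scaled to library size. For the enzymes that length is of all annotated exons together, so levels of different genes can be compared only roughly. Each library held 21550637 to 26300872 reads in genes. Of 10 beta cell markers, 9 passed the filter for testing given below, with summed levels of 79048 to 80600 FPKM under low, 74183 to 82761 under standard and 75718 to 78224 under high arginine. These sums are mostly Ins2 and Iapp. Single markers had other levels in low arginine, without overlap of the libraries, Pdx1 with 373 ± 22.7 FPKM against 150 ± 8.88 in standard and Ins1 with 1065 ± 43.1 against 1542 ± 133 (SD, n = 3 each). The marker that did not pass was Slc2a2, the glucose transporter that marks mouse beta cells, at no more than 0.0331 FPKM. In all, 2 of the 10 had a mean below 1 FPKM, Slc2a2 and a marker that passed. Of 8 markers of other islet hormone cells 4 passed it, and the summed level of the list was 9059 to 11574 FPKM in low arginine against 6324 to 7198 in standard and 6616 to 6804 in high arginine. That sum is mostly Sst, at 9758 ± 1340 FPKM in low and 5790 ± 391 in standard arginine, while Ttr with 296 ± 43.6 against 904 ± 50.5 and Gcg with 16.3 ± 1.58 against 25.7 ± 3.53 were lower in low arginine (SD, n = 3 each). Of 6 fibroblast and 4 endothelial or blood markers, 0 passed, at sums of at most 0.184 and 0.169 FPKM, and Cdh5, Ptprc and Hbb-bs were at 0. Whether the shifts in these markers had a part in the values below was not tested. As in any bulk sample, fewer cells that make an RNA and less of it per cell cannot be told apart.

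The promoters of 4 of the enzymes are shown as examples of windows that differ in the elements they carry. All of these hold CCAAT. The windows of Acat2, with 0 copies of CCAAT, and of Pmvk, with 1 copy in the first of its 2 windows, are not printed. RefSeq windows, build GRCm38.p6, from 250 bases before to 50 bases after the start, were found for 6 of the 8 enzymes, all but Fdps and Fdft1. Capitals mark CCAAT on either strand (ATTGG on the other), the box bound by NF-Y, a factor that works beside SREBP at many sterol genes, and TCACNCCAC on either strand with at most 1 mismatch, the letters of a classical sterol regulatory element. The windows are Hmgcs1 at chr13:119690101-119690400 on the plus strand, Idi1 at chr13:8885356-8885655 on the plus strand, Mvd at chr8:122443373-122443672 on the minus strand and Mvk at chr5:114444019-114444318 on the plus strand, each written 5′ to 3′ along its gene.
Hmgcs1: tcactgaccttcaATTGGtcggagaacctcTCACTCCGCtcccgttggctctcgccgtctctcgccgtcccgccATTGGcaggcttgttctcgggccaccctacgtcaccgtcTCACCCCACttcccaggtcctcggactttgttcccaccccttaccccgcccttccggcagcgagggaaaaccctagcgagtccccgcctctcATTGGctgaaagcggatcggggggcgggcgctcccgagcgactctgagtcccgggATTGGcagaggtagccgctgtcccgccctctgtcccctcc
Idi1: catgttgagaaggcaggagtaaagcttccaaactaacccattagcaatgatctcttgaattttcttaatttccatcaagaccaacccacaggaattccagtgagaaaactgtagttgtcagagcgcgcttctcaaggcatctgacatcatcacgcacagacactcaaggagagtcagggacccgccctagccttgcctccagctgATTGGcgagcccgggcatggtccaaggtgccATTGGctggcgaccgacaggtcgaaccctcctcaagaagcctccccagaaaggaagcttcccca
Mvd: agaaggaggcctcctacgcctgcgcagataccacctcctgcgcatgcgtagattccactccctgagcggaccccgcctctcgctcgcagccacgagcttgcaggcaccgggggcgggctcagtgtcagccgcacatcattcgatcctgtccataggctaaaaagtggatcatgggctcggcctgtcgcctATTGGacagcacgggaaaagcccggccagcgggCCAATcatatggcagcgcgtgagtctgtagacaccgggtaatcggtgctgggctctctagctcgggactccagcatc
Mvk: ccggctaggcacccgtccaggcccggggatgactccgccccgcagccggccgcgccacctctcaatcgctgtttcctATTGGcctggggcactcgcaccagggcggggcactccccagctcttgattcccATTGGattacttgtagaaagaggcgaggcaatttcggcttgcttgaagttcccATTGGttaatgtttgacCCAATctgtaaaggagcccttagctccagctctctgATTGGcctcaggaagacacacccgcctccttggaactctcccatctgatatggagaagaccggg

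Hmgcs1 was the only enzyme of the 6 with TCACNCCAC free of mismatches, as TCACCCCAC starting 137 bases before the start site, a match held by 1.24% of all 32851 promoters in the table. With 1 mismatch allowed, Hmgcs1 and Acat2 had it, 2 of 6, against 24.2% of all promoters. CCAAT stood in 5 of 6, in 4 copies for Hmgcs1, 5 for Mvk, 2 each for Mvd and Idi1 and 1 for Pmvk in the first of its 2 windows, against 37.4% of all promoters. GGGCGG, the core of a GC box, was in 5 of 6, against 35.7% of all promoters and 65.1% of those of tested genes. These are matches of letters and not measured binding sites.

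In low arginine all 8 enzymes fell relative to standard arginine. Their RNA came down to between 4.84% of the standard level for Fdps and 37.9% for Mvk. Reads from the 8 genes together made up 184.8, 193.9 and 193.5 per 1000000 reads in genes under low arginine. Under standard arginine they made up 1008.7, 1090.5 and 1021.5, and under high arginine 945.6, 900.2 and 925.2. The 3 low libraries lay far below all 6 others, and the high libraries lay a little below the standard ones. Genes were tested with limma on log2(FPKM + 1) if 3 or more of the 9 libraries had an FPKM of at least 1, and a gene is called when its Benjamini-Hochberg p-value, taken over the whole set of 12300 tested genes, was below 0.05. All 8 were called lower, and low arginine was a broad change in which 31.9% of all tested genes were called lower, so the call alone sets the enzymes little apart. A fall of at least 2-fold on the same scale was met by 8 of 8 enzymes and by 3.28% of tested genes. The median log2 difference was -2.31 for the enzymes and 0.00 for all genes tested. For 8 of 8 the low and standard libraries did not overlap, as for 33.4% of tested genes in the lower direction. Fdps passed the filter through its standard and high libraries only; the 7 others, with FPKM of at least 1 in all 9 libraries, had a median of -2.40.

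**Figure D1:**
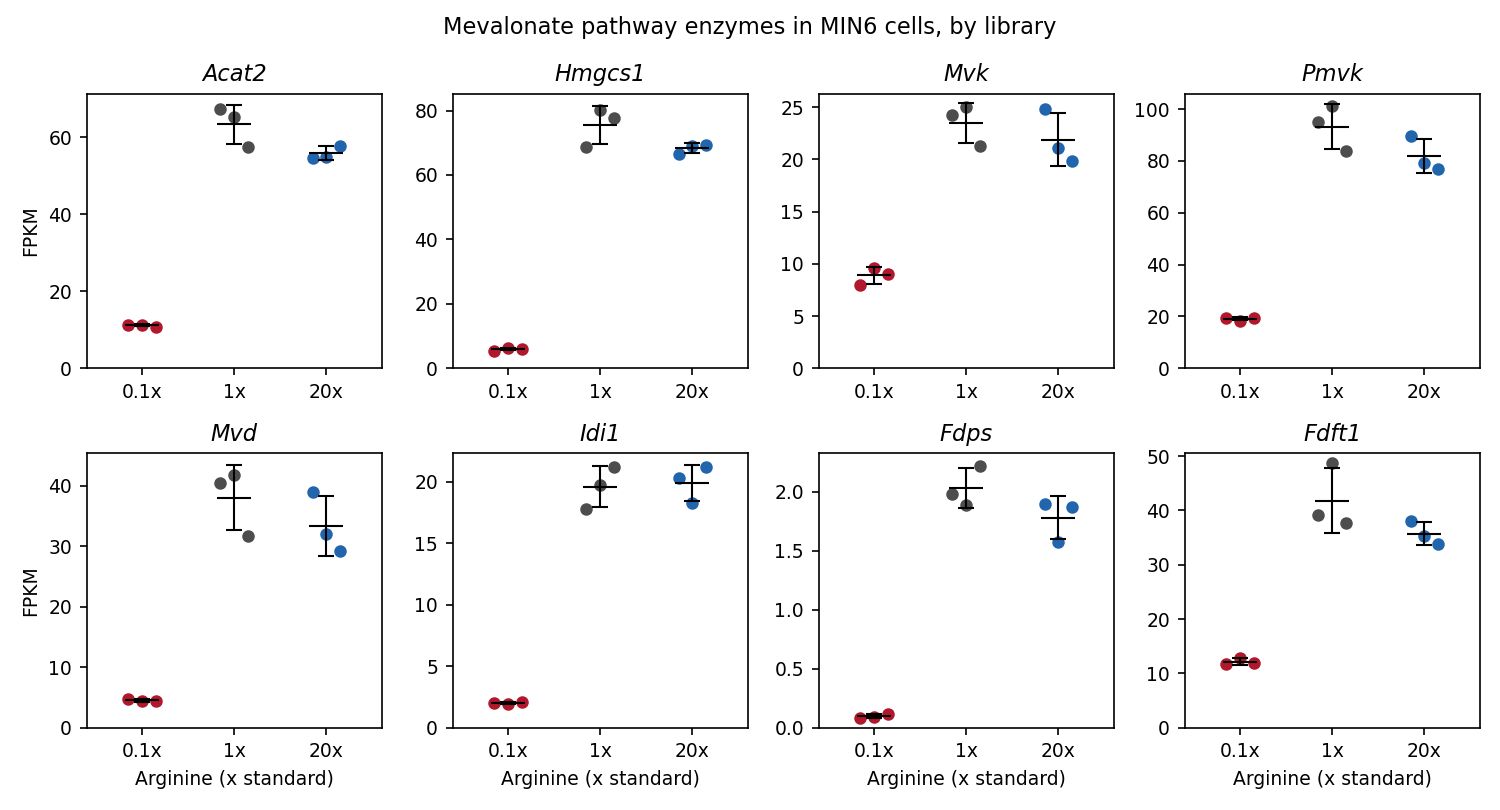
FPKM of each enzyme (vertical axes, each from 0) in every library against the arginine concentration relative to standard (horizontal axes); points are libraries, horizontal bars the mean and error bars the SD of 3. For all 8 enzymes the 3 low arginine points lie below every standard and high point, and standard and high points overlap.

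Acat2 (ENSMUSG00000023832, chr17:12942890-12960747, minus strand), the cytosolic thiolase that joins acetyl-CoA units to acetoacetyl-CoA, measured 11.3, 11.3 and 10.8 FPKM under low, 67.4, 65.2 and 57.6 under standard and 54.6, 55.0 and 57.9 under high arginine. The low values were tightly grouped and stood apart, while standard replicate 3 lay inside the range of the high libraries. The means were 11.2 ± 0.271, 63.4 ± 5.13 and 55.9 ± 1.8 (SD, n = 3 each), a 5.68-fold difference between standard and low that ranged from 5.08 to 6.22 over the pairs of libraries. The log2 difference of low from standard was -2.40 (SE 0.06, adjusted p = 1.63e-09 in limma), the 22nd largest fall among all tested genes. Of the 50-base windows of Acat2 transcripts, 39.1% recur in Acat3, a close paralogue, which stayed at or below 0.22 FPKM in all libraries, and 11.2% in Tcp1, a chaperonin subunit gene that averaged 37.3 FPKM under low, 47.9 under standard and 53.2 under high arginine. Windows were matched on either strand, and whether reads were shared between these genes was not tested.

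Hmgcs1 (ENSMUSG00000093930, chr13:119690379-119708260, plus strand) makes HMG-CoA in the cytosol from acetoacetyl-CoA and is a known early responder to sterol demand. It was at 5.48, 6.23 and 6.04 FPKM under low, 68.7, 80.1 and 77.7 under standard and 66.5, 69.1 and 69.3 under high arginine. Low arginine took it from the second highest of the 8 levels to the fifth, and standard replicate 1 was among the high values. The means were 5.92 ± 0.391, 75.5 ± 5.99 and 68.3 ± 1.58 FPKM (SD, n = 3 each). Standard exceeded low 12.8-fold, with a range over library pairs of 11.0 to 14.6. The log2 difference was -3.47 (SE 0.07, adjusted p = 2.82e-10 in limma), the 4th largest fall of all genes tested. An antisense gene, Gm48342, covers 12.1% of its exon bases and never exceeded 0.234 FPKM.

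Mvk (ENSMUSG00000041939, chr5:114444269-114460591, plus strand), mevalonate kinase, had the smallest fold of the 8. Its levels were 7.99, 9.65 and 9.07 FPKM under low, 24.3, 25 and 21.3 under standard and 24.8, 21.1 and 19.9 under high arginine. Low libraries again lay apart, and high replicate 1 was inside the standard range with the other two below it. The means were 8.90 ± 0.846, 23.5 ± 1.95 and 21.9 ± 2.51 FPKM (SD, n = 3 each), and standard exceeded low 2.64-fold, from 2.21 to 3.12 over library pairs. The log2 difference was -1.31 (SE 0.09, adjusted p = 9.66e-07 in limma).

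The start of Mvk lies 209 bases from that of Mmab, a gene of cobalamin metabolism that runs the other way, so both share the CCAAT-rich stretch printed above. Mmab was at 9.11, 9.98 and 9.08 FPKM under low, 11.4, 12.5 and 10.5 under standard and 9.37, 9.17 and 9.52 under high arginine. Its log2 difference of low from standard was -0.26 (SE 0.07, adjusted p = 0.00632 in limma). The ratio of Mvk to Mmab was 0.877, 0.967 and 0.999 under low, 2.13, 2.0 and 2.03 under standard and 2.64, 2.30 and 2.10 under high arginine. All 3 low ratios lay below the 6 others. The log2 ratio differed by -1.12 between low and standard, with an exact two-sided permutation p of 0.1, the smallest that 3 against 3 libraries can give. Between high and standard it differed by 0.19 (exact permutation p = 0.2).

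Pmvk (ENSMUSG00000027952, chr3:89454541-89469013, plus strand), the phosphomevalonate kinase of the next step, had the highest FPKM of the 8 in every group. It was at 19.5, 18.4 and 19.5 FPKM under low, 94.8, 101 and 83.7 under standard and 89.5, 79.3 and 77.0 under high arginine. The means were 19.1 ± 0.669, 93.1 ± 8.71 and 81.9 ± 6.66 FPKM (SD, n = 3 each), and standard exceeded low 4.87-fold, from 4.28 to 5.49 over library pairs. The low libraries were almost equal, and high replicate 1 lay above standard replicate 3. The log2 difference of low from standard was -2.22 (SE 0.08, adjusted p = 1.07e-08 in limma). The pairwise fold ranges of the 2 kinases, Pmvk and Mvk, did not overlap. No 50-base window of Pmvk or Mvd occurs in another gene, and neither shares an annotated exon base with a neighbour.

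Mvd (ENSMUSG00000006517, chr8:122433601-122443422, minus strand), the decarboxylase, was at 4.77, 4.47 and 4.37 FPKM under low, 40.5, 41.7 and 31.7 under standard and 38.9, 32.0 and 29.2 under high arginine. Its standard and high libraries were spread, with a coefficient of variation of 14.3% and 15%, and overlapped, while the low libraries stayed close together at 4.59%. The means were 4.54 ± 0.209, 38.0 ± 5.41 and 33.3 ± 5.0 FPKM (SD, n = 3 each), with an 8.36-fold difference between standard and low that ranged from 6.65 to 9.53. The log2 difference was -2.81 (SE 0.12, adjusted p = 2.71e-08 in limma).

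Idi1 (ENSMUSG00000058258, chr13:8885501-8892451, plus strand), the isomerase, was at 2.01, 1.95 and 2.08 FPKM under low, 17.8, 19.7 and 21.2 under standard and 20.3, 18.3 and 21.2 under high arginine. It was the only enzyme whose mean was higher in high than in standard arginine, by less than the SD of either group. The means were 2.01 ± 0.0658, 19.6 ± 1.69 and 19.9 ± 1.46 FPKM (SD, n = 3 each). Standard exceeded low 9.73-fold, from 8.58 to 10.9 over library pairs, with a log2 difference of -2.77 (SE 0.07, adjusted p = 1.57e-09 in limma). Its paralogue Idi2 was at 0 FPKM in all 9 libraries. Of the 50-base windows of Idi1, 17.7% recur in the processed pseudogene Gm13502, singled out after its values were seen, which averaged 0.144 FPKM in low and 1.24 in standard arginine.

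Fdps (ENSMUSG00000059743, chr3:89093588-89101959, minus strand), farnesyl diphosphate synthase, had the largest fold of the 8 and by far the lowest FPKM. It was at 0.0815, 0.0948 and 0.118 FPKM under low, 1.98, 1.89 and 2.22 under standard and 1.90, 1.57 and 1.87 under high arginine. The low values rest on 9, 11 and 14 reads, the standard values on 200, 165 and 210. The means were 0.0981 ± 0.0186, 2.03 ± 0.170 and 1.78 ± 0.183 FPKM (SD, n = 3 each). Standard exceeded low 20.7-fold, from 16 to 27.3 over library pairs, and the 95% interval from the summed reads was 14.6 to 30.1, which covers counting error only. On log2(FPKM + 1), which compresses low levels, the difference was -1.46 (SE 0.09, adjusted p = 2.34e-07 in limma), and with a pseudocount of 0.01 it was -4.25. The low libraries of Fdps lay below the 6 others on each of these scales, and the size of the log2 difference followed the pseudocount.

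The level of Fdps is uncertain, since its exons and sequence are shared with other genes. Gm43738, an annotated gene of the same strand, shares 26.7% of the exon bases of Fdps and was listed at 0 FPKM in all libraries. Of the 50-base windows of Fdps, 26.2% recur in other genes, and 23.4% recur in Gm43738. Fewer recur in processed pseudogenes, which are reverse-transcribed copies of its RNA, with 12.1% in Gm3571 and 5.53% in Gm5873. The same window can recur in several genes. The copies Gm3571 and Gm5873, singled out after their values were seen, had higher FPKM than the gene itself. Their lengths, by which FPKM divides, were 1060 and 1066 bases, against 4208 for Fdps. Gm3571 averaged 2.10 ± 0.324 FPKM under low, 28.9 ± 3.83 under standard and 26.2 ± 2.38 under high arginine (SD, n = 3 each), with a log2 difference of low from standard of -3.27 (SE 0.11, adjusted p = 6.56e-09 in limma). Gm5873 averaged 0.416 ± 0.193, 7.56 ± 1.14 and 6.26 ± 1.05 FPKM (SD, n = 3 each), a difference of -2.60 (SE 0.13, adjusted p = 9.59e-08). Gm5873, like Fdps, passed the filter through its standard and high libraries only. Both copies thus moved in the direction of Fdps, by 13.8-fold and 18.2-fold. Whether their reads came from Fdps RNA was not tested.

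Fdft1 (ENSMUSG00000021273, chr14:63145150-63179578, minus strand), squalene synthase, was at 11.8, 12.9 and 12 FPKM under low, 39.2, 48.7 and 37.6 under standard and 38.0, 35.3 and 33.9 under high arginine. Standard replicate 2 was the highest, and the low libraries lay apart from the rest. The means were 12.2 ± 0.606, 41.8 ± 6.02 and 35.7 ± 2.10 FPKM (SD, n = 3 each), with standard 3.42-fold above low and a range of 2.90 to 4.13. The log2 difference was -1.69 (SE 0.09, adjusted p = 1.43e-07 in limma). Its 3′ end overlaps that of Ctsb, a lysosomal protease gene on the other strand, over 18.3% of its exon bases. Ctsb averaged 81.5 FPKM in low and 99.3 in standard arginine, and whether the counting used strand is not stated in the sources. Whether Ctsb reads entered the value of Fdft1 was not tested.

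The order of the levels by FPKM, a rough guide between genes, changed with low arginine. In standard arginine it ran from Pmvk through Hmgcs1, Acat2, Fdft1, Mvd, Mvk and Idi1 to Fdps, and the ranges of neighbours were apart except for Fdft1 and Mvd. The order was the same in high arginine, where Mvk and Idi1 also overlapped. In low arginine it ran Pmvk, Fdft1, Acat2, Mvk, Hmgcs1, Mvd, Idi1 and Fdps, with no overlap between neighbours. By the size of the fall, the order was Fdps, Hmgcs1, Idi1, Mvd, Acat2, Pmvk, Fdft1 and Mvk, and the pairwise fold ranges overlapped between Idi1 and Mvd, Acat2 and Pmvk, and Fdft1 and Mvk.

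Genes around the mevalonate pathway were taken from lists chosen with earlier results of these data known, with 56 of 60 genes tested. Beside paralogues, the genes named from a list are called ones with its smallest p-values in low against standard arginine. Upstream, all 4 genes that supply acetyl-CoA and acetoacetate in the cytosol were lower in low arginine, where 31.9% of all genes were called lower and 30.3% higher. Acss2, which makes acetyl-CoA from acetate, fell by 1.65 on the log2 scale (SE 0.08, adjusted p = 7.53e-08 in limma), the citrate carrier Slc25a1 by 1.65, acetoacetyl-CoA synthetase Aacs by 1.39 and ATP citrate lyase Acly by 0.60. Acly, a very abundant gene at 777 ± 53.3 FPKM in standard arginine (SD, n = 3), was at -0.12 after quantile normalization. Downstream, 11 of 11 sterol enzymes after squalene were called lower, with a median of -2.01. Nsdhl fell by 3.01, from 57.8 ± 6.66 to 6.30 ± 0.512 FPKM (SD, n = 3 each), Cyp51 was at -2.78 and Hsd17b7 at -1.64.

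Paralogues of the enzymes and genes of ketone body metabolism were also listed. Of 5 tested genes of ketone body metabolism and paralogues, 0 were called higher and 1 lower, with a median of 0.05, beside 30.3% and 31.9% of all genes. Acat1, the mitochondrial thiolase, had a log2 difference of -0.19 (SE 0.08, adjusted p = 0.069 in limma), and Bdh1, which reduces acetoacetate to hydroxybutyrate, fell by 0.25, a call lost in TPM (-0.15, adjusted p = 0.0606 in limma). Ggps1, which extends farnesyl to geranylgeranyl diphosphate and is also in the prenylation list, had 0.19 (SE 0.08, adjusted p = 0.0638 in limma). Both values moved with the libraries and scaling used. Acat1 was at -0.27 without standard replicate 1 (adjusted p = 0.0125 in limma), -0.09 without standard replicate 2 (adjusted p = 0.27) and -0.07 in TPM and after quantile normalization. Ggps1 was at 0.25 without standard replicate 3 (adjusted p = 0.0187 in limma) and 0.11 without standard replicate 1 (adjusted p = 0.242).

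The users of isoprenoid units outside the sterol branch had calls in both directions, at shares near those of all genes. Over the 4 lists of prenylation, dolichol, ubiquinone and other users, 11 of 30 tested genes were called higher, 7 lower and 12 not at all, with a median of 0.08, where 30.3% of all genes were called higher and 31.9% lower. Among 12 protein prenylation genes 4 rose and 2 fell, against the same shares of all genes: Pggt1b, a subunit of the enzyme that attaches geranylgeranyl groups, rose by 0.95 (SE 0.10, adjusted p = 2.14e-05 in limma), Rabggtb by 0.63 and the CAAX protease Rce1 by 0.51, while Zmpste24, the protease that matures lamin A, fell by 0.57. Of 5 dolichol genes 4 were lower and 1 higher, with Dolk, dolichol kinase, down by 0.74 and Dolpp1, which recycles dolichyl pyrophosphate, up by 0.54. Srd5a3 and Nus1, which act in the synthesis of dolichol, fell by 0.59 and 0.40. Of 10 tested ubiquinone genes 3 rose and 1 fell, with Coq6 at 0.42, Coq4 at 0.31, Coq2 at 0.20 and Coq3 at -0.30. Trit1, which attaches an isopentenyl group to transfer RNA, rose by 1.04 (SE 0.10, adjusted p = 9.68e-06 in limma), and Cox10, which farnesylates haem, by 0.51. The calls of Coq2 and Coq3 were lost without standard replicate 3, at 0.13 and -0.27 (adjusted p = 0.0992 and 0.0718 in limma), and without other single libraries, low replicate 2 or 3 for Coq2 and low replicate 1 or 3 or standard replicate 2 for Coq3.

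The SREBP system, which controls these enzymes in other settings, had 6 of 7 genes called lower and 1 higher, beside 31.9% and 30.3% of all genes. Insig1, the retention protein that is itself an SREBP target, fell by 3.12, from 182 ± 11.1 to 20.0 ± 1.03 FPKM (SD, n = 3 each; SE 0.06, adjusted p = 2.82e-10 in limma). Srebf2, which encodes SREBP-2, fell to a log2 difference of -2.0, Srebf1 to -1.66 and Scap, the escort protein, to -0.52. These are RNA levels, and the processing of the SREBP proteins was not measured. Among the list genes named here, exons overlap a gene on the other strand over 27.1% of their bases for Coq4 (with Trub2), 13.7% for Bdh1 and 13.2% for Scap. The share is 9.12% for Acss2, 5.44% for Ggps1, 4.07% for Coq6 and 3.76% for Cyp51 (with Akap9). It is 1.93% for Srebf1, 1.82% for Dolpp1 and 1.61% for Cox10. On their own strand, Rabggtb shares 6.24% with small nucleolar RNA genes, Zmpste24 1.75% with Gm26186 and Srebf1 1.17% with Mir6922. Whether reads of the partner genes entered these values was not tested. For Pggt1b, FPKM divides by a length of 2736 bases, where its annotated exons hold 11749.

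**Figure D2:**
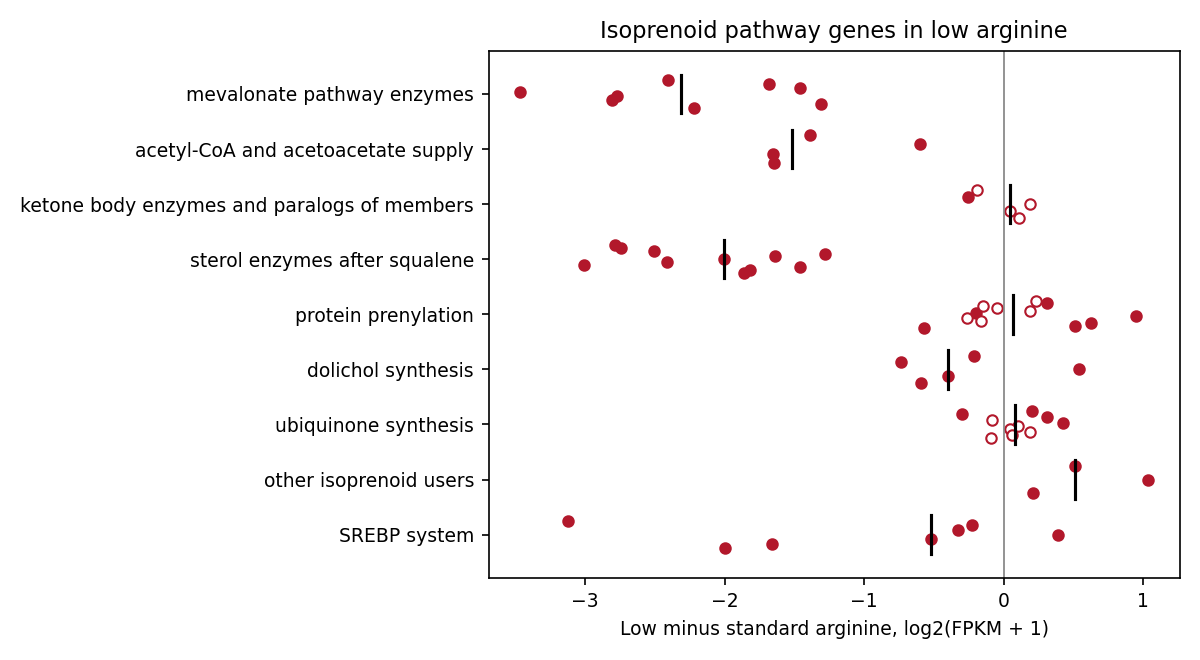
Difference of low from standard arginine in log2(FPKM + 1) (horizontal axis) for each tested gene of the enzyme set and the 8 lists (rows); filled points were called, open points were not, and black bars are list medians. The enzymes, the genes of acetyl-CoA supply and the sterol enzymes lie wholly left of 0, with medians of -2.31, -1.52 and -2.01, while prenylation and ubiquinone genes spread around 0.

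In high arginine, 20 times the standard concentration, 0 of 8 enzymes were called in limma, against 0.309% of all genes tested. At an unadjusted p below 0.05 there were 3, Acat2, Pmvk and Fdft1, where 14.3% of all genes had one. The libraries of high and standard arginine overlapped for all 8, and 8.14% of tested genes lay wholly lower. The differences were small, from 85.4% of the standard level for Fdft1 to 102% for Idi1, and 7 of 8 were below 0, as were 45.3% of tested genes. The median log2 difference was -0.16, beside 0.01 for all genes tested. Of the 56 genes in the lists, 0 were called in either direction and 10 had an unadjusted p below 0.05.

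The 95% intervals show what size of change the libraries leave possible. For Acat2 the log2 difference of high from standard was -0.18, with an interval from -0.32 to -0.04 (adjusted p = 0.254 in limma). For Fdft1 it was -0.21, from -0.42 to -0.01 (adjusted p = 0.322), and for Pmvk -0.18, from -0.36 to -0.01 (adjusted p = 0.330). For these 3 the interval lay below 0, and the adjusted p missed the threshold. For Hmgcs1, with -0.14, the interval ran from -0.29 to 0.01, for Mvk, with -0.10, from -0.31 to 0.11, and for Mvd, with -0.18, from -0.44 to 0.07. Fdps, with -0.12, ran from -0.31 to 0.07, and Idi1, with 0.03, from -0.14 to 0.19. None of the intervals reaches the size of any fall in low arginine, of which the smallest was -1.31. With weights that let noisier libraries count less, 3 enzymes were called lower in high arginine, Acat2 at -0.23 (adjusted p = 0.0246 in limma), Pmvk at -0.25 (0.0297) and Mvd at -0.31 (0.0444), while that setting raised the calls over all genes from 38 to 1323.

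**Figure D3:**
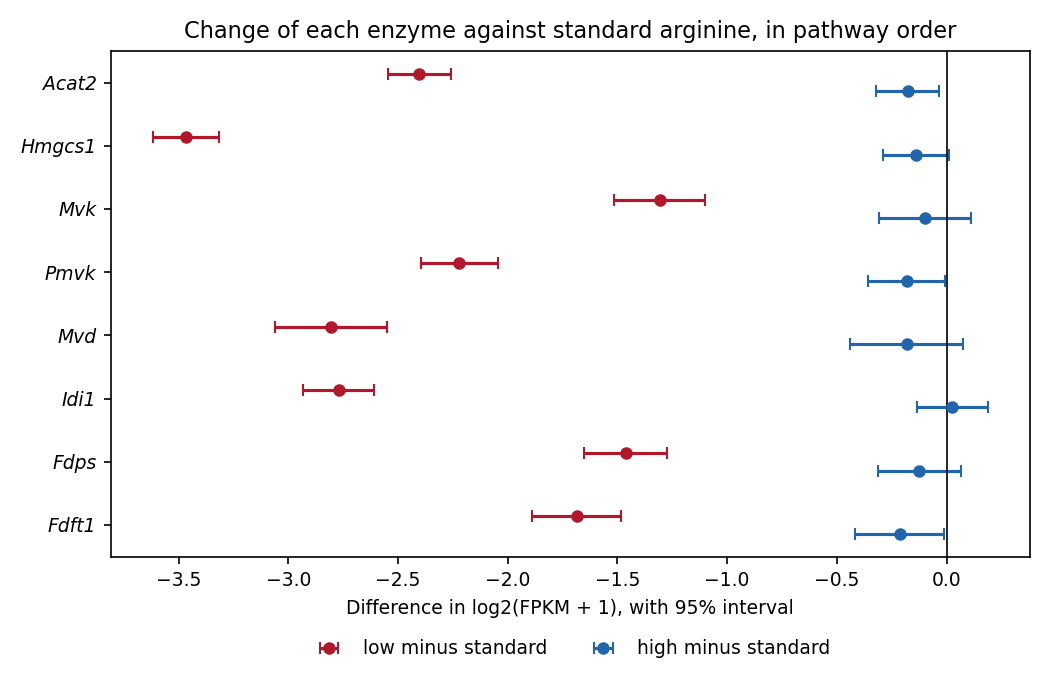
Log2 difference from standard arginine on log2(FPKM + 1) (horizontal axis) of each enzyme in pathway order (rows), in low (red) and high arginine (blue), with 95% intervals. Low arginine values run from -3.47 to -1.31, and high arginine values lie between -0.21 and 0.03.

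High and low arginine were also compared directly, since both comparisons above share the standard libraries. All 8 enzymes were called higher in high than in low arginine, as were 32.3% of tested genes, while 29.2% were called lower. For 8 of 8 the libraries did not overlap, as for 35.3% of tested genes in the same direction. On log2(FPKM + 1) the difference was 3.33 for Hmgcs1, an 11.5-fold difference of the means, followed by Idi1 at 2.80, Mvd at 2.62, Acat2 at 2.23 and Pmvk at 2.04. Fdft1 differed by 1.47, Fdps by 1.34 and Mvk by 1.21, and the median was 2.13. Since Fdps passed the filter through its standard and high libraries only, its direction here was partly set by the filter. The 7 others had a median of 2.23. Fdps, whose low level this scale compresses, had the largest fold of the means, at 18.1. Of the 56 genes in the lists 30 were higher and 13 lower, and in the 4 lists outside the sterol branch 9 were higher and 12 lower of 30.

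Within groups the enzymes did not share a single order of libraries. Standard replicate 2 was the highest of its group for 5 enzymes, Hmgcs1, Mvk, Pmvk, Mvd and Fdft1, and standard replicate 3 the lowest for 5, Acat2, Mvk, Pmvk, Mvd and Fdft1. Idi1 and Fdps went the other way and were highest in standard replicate 3. In high arginine, replicate 1 was the highest for 5, Mvk, Pmvk, Mvd, Fdps and Fdft1, and replicate 3 the lowest for 4, Mvk, Pmvk, Mvd and Fdft1. Mvk, Pmvk, Mvd and Fdft1 thus had standard replicate 3 and high replicate 3 as their lowest libraries. Coefficients of variation were 2.43% to 9.5% in low arginine for all but Fdps, whose few reads gave 18.9%. In high arginine they ran from 2.31% for Hmgcs1 to 15% for Mvd.

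**Figure D4:**
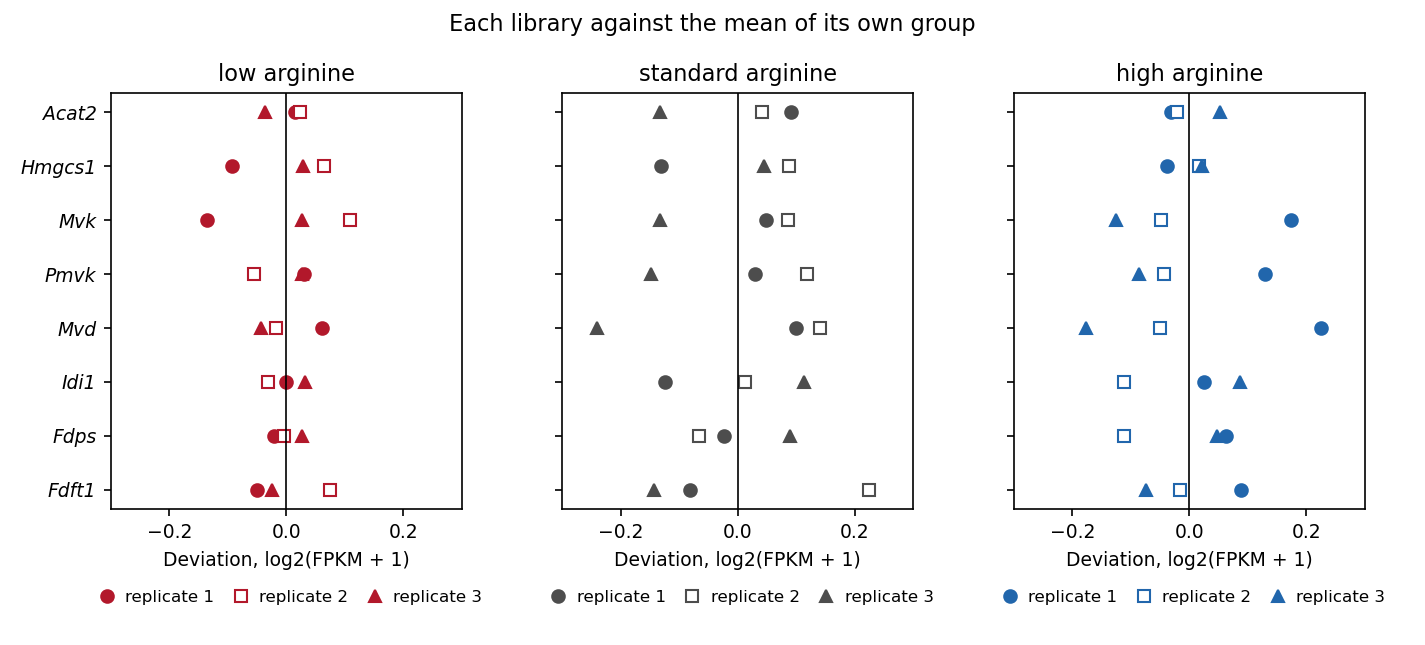
Deviation of each library from the mean of its own group in log2(FPKM + 1) (horizontal axis) for each enzyme (rows), with 1 panel per group and a symbol per replicate. Mvk, Pmvk, Mvd and Fdft1 share standard replicate 3 and high replicate 3 as their lowest libraries, and all deviations are small beside the falls in low arginine.

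The genes whose pattern over the 9 libraries was most like the mean of the 8 enzymes were ranked by the root mean square difference of centred log2(FPKM + 1), among protein-coding genes with a mean of at least 5 FPKM. Among the nearest were the tubulin gene Tuba1a at 0.0871 and Dbi, the acyl-CoA binding protein, at 0.104. Further genes were the glycolytic genes Pfkl at 0.109 and Gpi1 at 0.117, the sterol enzyme Msmo1 at 0.117, Tmem97 at 0.120 and Rhd at 0.121. The enzymes themselves lay between 0.0631 for Pmvk and 0.571 for Hmgcs1, and the median of all genes tested was 1.04. Tuba1a was at 38.9, 35.3 and 36.6 FPKM under low, 196, 188 and 167 under standard and 196, 174 and 173 under high arginine, so its low libraries too lay far below the rest. The match rests mainly on the difference of the low libraries from the other 6. Tuba1a shares 26.2% of its exon bases with Gm49450 on its own strand, and Gpi1 11.5% with Gm26762 on the other. Whether reads of these partner genes entered the values was not tested.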

How the data were processed

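RNA of 9 MIN6 libraries, 3 per arginine concentration, was sequenced after 24 h; groups and replicate numbers come from the labels. Since the labels name no separate cultures, a p-value speaks only of the spread among these libraries, and that spread may be technical. The authors deposited FPKM per gene and library, with gene lengths in bases as an other column, per the file headers. The kit was directional, per the labels' protocols; the submitters' processing notes list featureCounts 1.5.0-p3, HISAT2 2.0.5 and CASAVA 1.8, and no strand setting is given in the sources used here. These notes name mm9, but 98.3% of the 54409 gene IDs that GENCODE M21 also holds have GRCm38 positions in the file, so coordinates are GRCm38. The file held 0 unused columns of samples.

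FPKM times length gave whole reads, within 0.01, in 100% of values, and reads in genes were rebuilt from it. The library size in the authors' FPKM was 0.962 to 1.08 times these reads, so some scaling between libraries preceded deposit. This factor followed the group, with 1.05 to 1.08 in low, 0.962 to 1.02 in standard and 0.969 to 0.994 in high arginine. A larger factor gives a lower FPKM for the same reads, which bears most on small differences. Genes with FPKM of at least 1 in at least 3 libraries, 12300, were fitted once over all 9 libraries as log2(FPKM + 1) with limma 3.58.1 (R 4.3.3), with a variance prior that follows expression, group as the only term, two-sided p-values and Benjamini-Hochberg adjustment over all genes tested at 0.05. The 95% intervals of differences come from that fit. The procedure was also run on simulated data, in which far fewer genes changed than were called in low arginine here. That run therefore cannot speak for error rates under so broad a change. Shared sequence was counted as 50-base windows of GENCODE transcripts found in other genes, as they stand or as the reverse complement. Alternatives were 2 other pseudocounts, other filters, TPM and quantile scaling, only the groups compared, array weights, no variance trend, voom weights on the rebuilt reads, a replicate block, and each library left out. Named genes were the 8 enzymes, up to 4 called genes with the smallest p from each list, 5 paralogues, overlapping genes or those starting within 1000 bases, and the 8 nearest patterns; some genes that this rule names are not reported here. The enzymes and lists were chosen with earlier results of these data known.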

Additional observations from a re-analysis of the deposited data

How the results depend on the processing

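Each enzyme kept its direction and call under every alternative run when low arginine was compared with standard or with high arginine, 159 of 159 values in each. Several alternatives, such as other filters or leaving out a library of the group not compared, cannot change the log2 difference and bear on its p-value only. Fdps was not tested at a mean of at least 5 FPKM. Without single libraries, 8 enzymes were called in both comparisons, and 0 in high against standard arginine. There, array weights gave 3 enzymes and 10 of the 56 list genes called, 1 higher and 9 lower, against 0 and 0; the cause was not tested. Over all genes this comparison had 38 calls, and 6 with no filter, 0 with only both groups fitted, 74 with voom, 88 with a replicate block, 1323 with array weights and 0 to 61 without single libraries, so its list of calls is not stable. In TPM the median log2 difference of all genes in low against standard arginine was 0.12, beside 0.00 in FPKM, where 61.6% of calls were then higher against 48.7%, and the share was 39.5% against 52.5% in high against low arginine. Of the 56 list genes, 16 were called higher and 24 lower in low against standard arginine in TPM, against 12 and 29 in FPKM. Replicate numbers were not taken as pairs, since no label says that they mark a shared culture. Of 9 same-numbered pairs, 6 correlated above 0.1, with a range of -0.04 to 0.24. Pairs of unlike number were not computed beside them, so these values cannot decide whether the numbers mark pairs. With a replicate block, 8, 0 and 8 enzymes and 46, 0 and 47 list genes were called in the 3 comparisons. Without it 41, 0 and 43 list genes were. Depth limits Fdps most, with 34 reads in the low libraries together.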

Other observations

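Gm22935, a small nuclear RNA gene that lies inside Fdps on the same strand, had 0 reads in the low libraries together, 8 in the standard and 17 in the high libraries, where Fdps had 34, 575 and 527. Gm48574, which overlaps the start of Idi1 on the other strand, stayed at or below 0.167 FPKM in all libraries, and Gm20388, whose annotated span takes in all of Mvd on the other strand, was listed at 0.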
